A study of Mus musculus with 6 samples.

Results

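The antioxidant and metal-binding response of synovial fibroblasts (SFs) was followed through 10 genes: Nfe2l2, which encodes the transcription factor NRF2, its inhibitor Keap1, the NRF2 targets Nqo1, Gclc, Gclm, Txnrd1, Srxn1 and Slc7a11, and the metallothionein genes Mt1 and Mt2. They serve as readouts of oxidative and metal stress and are picked by gene name. They are 10 of the 49548 genes listed in the deposited table, and all 10 had enough reads to be tested.

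NRF2 is held in the cytoplasm by KEAP1, which presents it to a CUL3 ubiquitin ligase for degradation. Oxidants and electrophiles modify cysteines of KEAP1, NRF2 then accumulates, enters the nucleus, pairs with small MAF proteins and binds antioxidant response elements (AREs) of genes for glutathione synthesis, thioredoxin reduction and quinone detoxification. Metallothioneins are small cysteine-rich proteins that bind zinc and copper, and their genes are switched on by the zinc-sensing factor MTF1 at metal response elements (MREs), as well as by glucocorticoids and inflammatory signals. In joint tissue, oxidants are produced in the inflamed synovium, and SFs carry both systems.

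The cells were primary SFs from the ankle joints of hTNFtg mice, which carry a human TNF transgene and develop arthritis. According to the methods of the study, the mice were 8 weeks old, on a CBA C57BL/6J background, and CD45+ cells were depleted at passage 1. One group was labelled as having received no treatment, although the methods speak of vehicle, and is called untreated here. The other was given amisulpride, an antipsychotic drug that blocks dopamine and serotonin receptors, at 500 μM for 48 hours. Each group comprised 3 libraries, both groups carried the transgene, and a wild-type group was not analysed here. The sources used here state neither the promoter that drives the transgene nor whether the same mice supplied both groups, and they place the drug stock in DMSO.

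Libraries were 3′ mRNA sequencing libraries (QuantSeq, Ion Proton), in which a gene is read near the end of its transcript. The authors scaled each library's read counts by a size factor and rounded them before deposit, and these values are called normalised counts. Depth, estimated from the spacing of the low values, was 2.52 to 4.71 M reads in 5 libraries and could not be determined in untreated replicate 1. Amisulpride replicate 3 had the fewest reads of these 5 and stood apart from the other 5 libraries, at 73.9 on the first principal component of all tested genes against −38.2 to 10.4. The 11 fibroblast markers had values in every library, with sums of 44997 to 59704 in untreated and 51651 to 91359 in amisulpride libraries. Among 12 leukocyte markers, Cd3e and Cd79a were at 0 in all libraries, and the sums were 2744 to 5265 in untreated and 2588 to 4866 in amisulpride libraries. The 7 endothelial and mural markers summed to 206 to 227 in untreated and 111 to 154 in amisulpride libraries, with Cdh5 at 0 throughout. The part of these differences in the results below was not tested, and in cultures measured in bulk fewer cells of a type and less RNA per cell cannot be told apart.

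The promoters of 4 genes are shown because they carry the letters to which MTF1 or NRF2 binding is usually attributed. Each runs 5′ to 3′ on the strand of its gene over 280 bases, from 250 bases before to 30 bases after the RefSeq start (build GRCm38.p6). Capitals mark every match, on either strand, to TGACNNNGC, a core of the ARE, or to TGCACNC or TGCGCNC, the core of the MRE. Mt2 lies at chr8:94172368-94172647 and Mt1 at chr8:94178839-94179118, both on the plus strand, while Nfe2l2 lies at chr2:75704634-75704913 on the minus strand and Gclm at chr3:122245307-122245586 on the plus strand.
Mt2: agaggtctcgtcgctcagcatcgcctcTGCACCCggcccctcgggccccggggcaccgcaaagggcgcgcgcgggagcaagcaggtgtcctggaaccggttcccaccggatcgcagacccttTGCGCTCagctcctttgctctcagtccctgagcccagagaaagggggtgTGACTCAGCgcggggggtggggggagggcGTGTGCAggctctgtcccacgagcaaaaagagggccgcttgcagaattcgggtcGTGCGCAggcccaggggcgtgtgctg
Mt1: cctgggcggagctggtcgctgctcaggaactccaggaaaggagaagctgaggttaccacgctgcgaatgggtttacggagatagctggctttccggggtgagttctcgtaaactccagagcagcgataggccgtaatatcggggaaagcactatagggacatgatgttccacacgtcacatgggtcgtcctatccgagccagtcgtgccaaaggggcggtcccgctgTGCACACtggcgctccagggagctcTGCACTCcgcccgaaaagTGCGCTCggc
Nfe2l2: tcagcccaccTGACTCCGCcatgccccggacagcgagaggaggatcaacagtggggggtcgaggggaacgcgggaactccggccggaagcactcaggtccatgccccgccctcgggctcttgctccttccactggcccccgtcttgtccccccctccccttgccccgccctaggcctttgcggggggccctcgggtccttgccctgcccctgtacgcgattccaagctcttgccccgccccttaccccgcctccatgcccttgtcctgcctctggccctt
Gclm: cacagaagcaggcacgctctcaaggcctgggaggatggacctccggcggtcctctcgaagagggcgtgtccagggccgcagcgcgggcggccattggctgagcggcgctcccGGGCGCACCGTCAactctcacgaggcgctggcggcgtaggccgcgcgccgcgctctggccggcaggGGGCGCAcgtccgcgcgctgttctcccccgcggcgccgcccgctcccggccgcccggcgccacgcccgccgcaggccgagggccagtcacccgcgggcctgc

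The Mt2 window held 4 MRE matches, of which the last began 5 bases past the start, and 1 ARE match, TGACTCAGC, at −79 to −71. That ARE match also contains TGACTCA, the letters bound by AP-1 factors, so it cannot be assigned to either by sequence. In Mt1, 3 MRE matches lay between −23 and 27 of the RefSeq start used, the last close to the end of the window. No ARE match was found within this window. The Nfe2l2 window held an ARE match at −240 to −232, in its own promoter, and no MRE match. Gclm held 1 ARE match and 2 MRE matches, 1 of which overlapped the ARE match. Of the 32851 mouse promoters of the same length, 11.5% held at least 1 ARE match and 24.1% at least 1 MRE match of either form, while 1.73% held 3 or more MRE matches and 0.405% held 4 or more. Promoters were at hand for 9 of the 10 genes, in 11 windows, and among the others Txnrd1 held an ARE match in 1 of its 3 windows and Srxn1 held 1 MRE match. In the windows of Nqo1, Keap1 and Slc7a11 these letters did not occur. Sequence outside the windows and other forms of the elements were not searched. A missing match therefore does not show that a gene lacks an ARE or MRE. Gclc was not matched.

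Nqo1, Mt1 and Mt2 had about 2.34, 2.38 and 3.16 times their untreated level in amisulpride-treated SFs on the log2 scale of the test. Nfe2l2 and Gclc were higher in every treated library by smaller factors. Keap1, Gclm, Txnrd1, Srxn1 and Slc7a11 had overlapping groups, and the sign of their change depended on which libraries were included. The groups of Mt2 overlapped too, through untreated replicate 2, but its change stayed positive with any library left out. The groups were compared with limma on log2(normalised count + 1) across all 12614 genes that reached 10 normalised counts in 3 or more libraries, and adjusted p-values are Benjamini-Hochberg values over all of them.

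By the thresholds the study used, a log2 fold change of at least 1 in size and an unadjusted p under 0.05, 3 of the 10 genes were higher and 0 were lower, where 2.69% of all tested genes were called higher and 3.01% lower. An unadjusted p under 0.05 was reached by 4 genes, all higher with amisulpride, against 5.11% of all tested genes. None of the 10 had an adjusted p under 0.05 in this limma comparison, a call made for 36 genes or 0.285% of those tested. The 3 treated values lay above the 3 untreated values for 4 genes, against 7.8% of all tested genes, and below them for 0, against 8.66%. The median log2 fold change of the 10 genes was 0.45, and that of all tested genes was 0.00. The 10 genes were chosen with earlier results of these data known, so these shares carry no test of them as a set.

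Some markers of cell types differed as well. Of the 10 tested leukocyte markers 8 had a negative log2 fold change, as did 6289 of all 12614 tested genes. Past the study thresholds 2 of these markers were lower, against 3.01% of all tested genes. The sums of the leukocyte markers given above are mostly Lyz2. Cd14, a receptor of myeloid cells, had normalised counts of 121, 69 and 76 in untreated and 47, 25 and 13 in amisulpride libraries (log2 fold change −1.74, unadjusted limma p 0.00223). Csf1r, the receptor for the growth factor of macrophages, had 114, 93 and 76 in untreated and 41, 23 and 100 in treated libraries (−1.01, unadjusted limma p 0.0486), so only in Cd14 were all treated values lower. The 2 leukocyte markers with a positive log2 fold change were the macrophage markers Adgre1 (0.83, unadjusted limma p 0.0784) and Cd68 (0.31, unadjusted limma p 0.375). Mcam, a marker of mural and endothelial cells, had 112, 122 and 184 in untreated and 53, 47 and 57 in treated libraries (−1.37, unadjusted limma p 0.000576). Cspg4, the only other tested marker of that list, was at 0.21 (unadjusted limma p 0.608). Prg4, the lubricin gene of the synovial lining, had 915, 859 and 733 in untreated and 426, 304 and 653 in treated libraries (−0.92, unadjusted limma p 0.00924). Among the 11 fibroblast markers 6 had a positive and 5 a negative log2 fold change, and only Prg4 had an unadjusted limma p under 0.05. What part these shifts had in the values of the 10 genes was not tested.

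**Figure D1:**
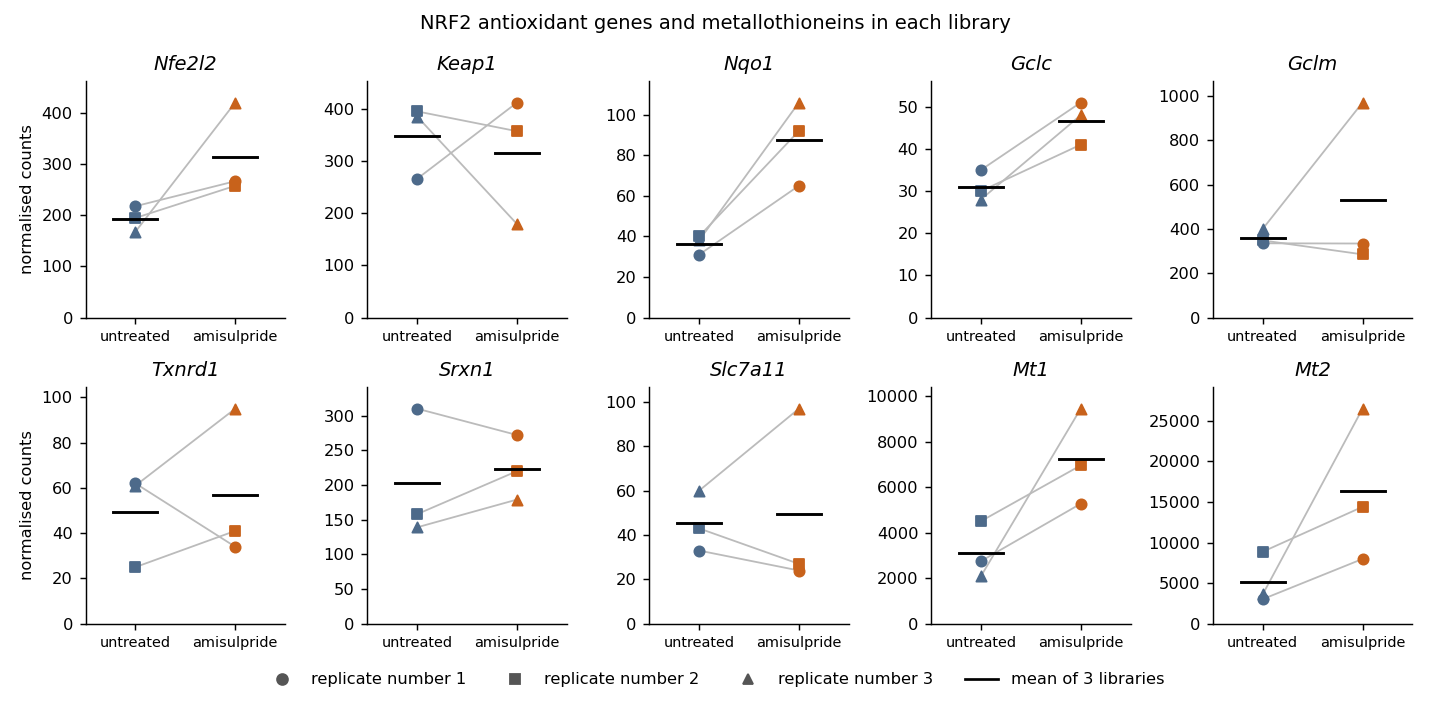
Normalised counts of the 10 genes in each of the 3 untreated (blue) and 3 amisulpride (orange) libraries, each panel on its own linear axis from 0, with the replicate number as the marker shape, grey lines between equal numbers and the group mean as a black bar. The treated values of Nfe2l2, Nqo1, Gclc and Mt1 all lie above the untreated ones, and amisulpride replicate 3 is the highest library for Nfe2l2, Nqo1, Gclm, Txnrd1, Slc7a11, Mt1 and Mt2 and the lowest for Keap1.

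Nfe2l2 (ENSMUSG00000015839, chr2:75675513-75704641, minus strand, 5 exons in the transcript with the most) encodes NRF2 itself, whose activity is set mainly through the stability of the protein. Its normalised counts were 218, 195 and 168 in untreated replicates 1 to 3 and 267, 258 and 421 in amisulpride replicates 1 to 3. The groups did not overlap, and amisulpride replicate 3 had the highest value. The group means were 194 ± 25.03 and 315 ± 91.6 (SD, n = 3), and the log2 fold change was 0.67 ± 0.27 (SE; 95% interval 0.08 to 1.26). In limma this gave an unadjusted p of 0.0297 and an adjusted p of 0.387. Without amisulpride replicate 3 the log2 fold change was 0.44 with an unadjusted p of 0.0939, and the unadjusted p also exceeded 0.05 without untreated replicate 2, at 0.0657, or untreated replicate 3, at 0.106.

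Keap1 (ENSMUSG00000003308, chr9:21229730-21239361, minus strand, 6 exons) encodes the inhibitor that holds NRF2 for degradation. Its values were 266, 395 and 385 in untreated and 412, 357 and 179 in amisulpride libraries. Amisulpride replicate 1 had the highest and amisulpride replicate 3 the lowest of the 6 values, so the groups overlapped fully. The log2 fold change was −0.21 ± 0.33 (95% interval −0.93 to 0.52), with an unadjusted limma p of 0.546, and it became 0.16 without amisulpride replicate 3.

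Nqo1 (ENSMUSG00000003849, chr8:107388225-107403206, minus strand, 6 exons) encodes the quinone reductase NAD(P)H dehydrogenase, a classical NRF2 target that reduces quinones without forming radicals. Normalised counts were 31, 40 and 38 in untreated SFs and 65, 92 and 106 after amisulpride. All 3 treated values exceeded all 3 untreated ones, and the lowest treated value was 65 where the highest untreated value was 40. Within replicate numbers 1, 2 and 3 the treated value was 2.10, 2.30 and 2.79 times the untreated one, the narrowest spread among the 3 genes past the thresholds. The means were 36.3 ± 4.73 and 87.7 ± 20.8 (SD, n = 3), and the log2 fold change was 1.23 ± 0.31 (95% interval 0.55 to 1.90), a fold of 2.34 (1.47 to 3.74). The unadjusted p was 0.00202 and the adjusted p 0.14 in limma. Nqo1 stayed past the study thresholds with any 1 library left out, at log2 fold changes of 1.08 to 1.43.

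Glutathione synthesis begins with cystine, which the transporter subunit encoded by Slc7a11 brings into the cell, and continues with glutamate-cysteine ligase, made of a catalytic subunit (Gclc) and a modifier subunit (Gclm). Gclc (ENSMUSG00000032350, chr9:77754535-77794485, plus strand, 16 exons) had normalised counts of 35, 30 and 28 in untreated and 51, 41 and 48 in amisulpride libraries. Again every treated value was above every untreated one, although the lowest treated value, 41, was close to the highest untreated value, 35. The log2 fold change was 0.58 ± 0.31 with a 95% interval of −0.11 to 1.26 and an unadjusted limma p of 0.0926, so the difference was not beyond the spread of the test. It changed little with libraries left out, from 0.51 to 0.66.

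Slc7a11 (ENSMUSG00000027737, chr3:49892526-50443614, minus strand, 12 exons) had values of 33, 43 and 60 in untreated and 24, 27 and 97 in amisulpride libraries. Amisulpride replicates 1 and 2 were the lowest of the 6 libraries and amisulpride replicate 3 the highest, at 3.804 times the mean of the other two. Its log2 fold change was −0.14 ± 0.50 (95% interval −1.23 to 0.96; unadjusted limma p 0.788). Without amisulpride replicate 3 it was −0.77 with an unadjusted p of 0.0611, and it turned positive without untreated replicate 3, amisulpride replicate 1 or amisulpride replicate 2, at 0.08, 0.22 and 0.14. Of the 31-base words at the ends of Slc7a11 transcripts, 2.76% also occur on the opposite strand of Gm14150, and an equal share on that of Tuba1a. Gm14150 was listed at 17, 15 and 15 in untreated and 15, 16 and 89 in amisulpride libraries. Tuba1a was far more abundant, at 25238, 21942 and 26155 in untreated and 35456, 33261 and 39472 in amisulpride libraries. Both were also highest in amisulpride replicate 3, and the part of either in the Slc7a11 value was not tested. The lowest Slc7a11 value corresponded to about 20.2 reads, the fewest among the 10 genes where depth was known.

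Gclm (ENSMUSG00000028124, chr3:122245557-122270732, plus strand, 8 exons) had values of 335, 348 and 400 in untreated and 334, 285 and 970 in amisulpride libraries. Only amisulpride replicate 3 was above the untreated range, at 3.13 times the mean of the other two treated libraries. For Gclm as listed the log2 fold change was 0.33 ± 0.40 (95% interval −0.55 to 1.20; unadjusted limma p 0.427), and −0.22 without that library. Gclm contains a same-strand processed pseudogene, Gm6061 (chr3:122256728-122257219), which lies in an exon of 1 of the 7 Gclm transcripts and of whose 462 words of 31 bases 431 also occur in transcripts of Ppia, the gene for cyclophilin A. Gm6061 was listed at 257, 259 and 321 in untreated and 229, 210 and 875 in amisulpride libraries, which is 68.6% to 90.2% of the Gclm value of the same library.

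The rest of the Gclm value, obtained by subtracting Gm6061, was 78, 89 and 79 in untreated and 105, 75 and 95 in amisulpride libraries, and this subtraction was chosen after the values were seen. The high value of amisulpride replicate 3 was thus not present outside the pseudogene. For the remainder the log2 fold change was 0.15 ± 0.27 (95% interval −0.44 to 0.74), with an unadjusted limma p of 0.593, and 0.12 without amisulpride replicate 3. Ppia itself had normalised counts of 3850, 7193 and 6370 in untreated and 4572, 6206 and 11034 in amisulpride libraries, again highest in amisulpride replicate 3. Whether reads from Ppia were placed in Gm6061 was not tested, and the Gclm value as listed is therefore uncertain.

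**Figure D2:**
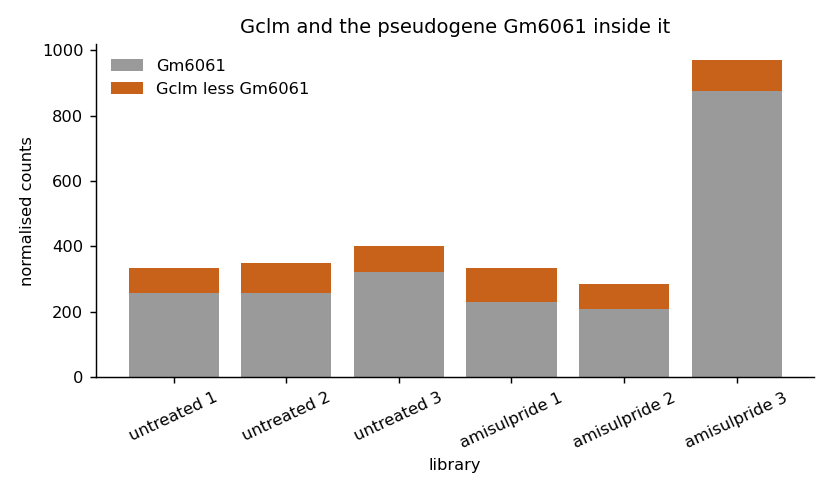
Stacked bars of the Gclm normalised count in each library, split into the share listed for the pseudogene Gm6061 (grey) and the remainder (orange), on a linear axis from 0. The remainder stays between 75 and 105 in all 6 libraries, while Gm6061 reaches 875 in amisulpride replicate 3.

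Txnrd1 and Srxn1 act in the thioredoxin branch, the first encoding the cytosolic thioredoxin reductase and the second sulfiredoxin, which restores overoxidised peroxiredoxins. Txnrd1 (ENSMUSG00000020250, chr10:82859206-82897724, plus strand, 15 exons) had values of 62, 25 and 61 in untreated and 34, 41 and 95 in amisulpride libraries. Untreated replicate 2 was the lowest and amisulpride replicate 3 the highest, and of the remaining 4 libraries the treated ones were the lower, so the groups overlapped. The log2 fold change was 0.16 ± 0.46 (95% interval −0.86 to 1.17; unadjusted limma p 0.739), and it was negative without either of those libraries, at −0.26 and −0.28. Srxn1 (ENSMUSG00000032802, chr2:152105516-152111376, plus strand, 2 exons) had values of 310, 158 and 139 in untreated and 272, 220 and 179 in amisulpride libraries. Untreated replicate 1 was the highest library of all, while the other 2 untreated libraries were the lowest. Treated over untreated, the log2 fold change was 0.22 ± 0.33 (95% interval −0.50 to 0.94; unadjusted limma p 0.522) and −0.01 without untreated replicate 3.

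Mt1 (ENSMUSG00000031765, chr8:94179082-94180327, plus strand, 3 exons) and Mt2 (ENSMUSG00000031762, chr8:94172664-94173568, plus strand, 3 exons) are neighbours, with 5513 bases from the end of Mt2 to the start of Mt1. The last 400 bases of their transcripts share 0 words of 31 bases, so reads of that length from one would not match the other exactly. Their promoters, shown above, held 3 and 4 MRE matches.

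Normalised counts of Mt1 were 2750, 4507 and 2087 in untreated and 5276, 6961 and 9455 in amisulpride libraries. The groups did not overlap, although untreated replicate 2 stood above the other untreated libraries and came near amisulpride replicate 1. The treated value was 1.92, 1.54 and 4.53 times the untreated one within replicate numbers 1, 2 and 3. The means were 3115 ± 1251 and 7231 ± 2103 (SD, n = 3), and the log2 fold change was 1.25 ± 0.34 (95% interval 0.50 to 1.998), a fold of 2.38 (1.41 to 3.99). In limma the unadjusted p was 0.00361 and the adjusted p 0.18. Without untreated replicate 3 the log2 fold change was 0.997 (unadjusted p 0.0271), just short of the fold threshold.

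Mt2 had normalised counts of 3023, 8865 and 3609 in untreated and 7976, 14394 and 26484 in amisulpride libraries. Untreated replicate 2 lay above amisulpride replicate 1, so the groups overlapped, and amisulpride replicate 3 was the highest library by a wide margin, at 2.37 times the mean of the other two treated ones. Within replicate numbers the treated value was 2.64, 1.62 and 7.34 times the untreated one. The means were 5166 ± 3217 and 16285 ± 9398 (SD, n = 3), and the log2 fold change was 1.66 ± 0.49 (95% interval 0.59 to 2.72), a fold of 3.16 (1.51 to 6.60). The unadjusted p was 0.00557 and the adjusted p 0.209 in limma. Without amisulpride replicate 3 the log2 fold change was 1.22 with an unadjusted p of 0.0143.

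Samples with the same replicate number deviated together from their group means, so the comparison was repeated with the replicate number as a block. Mt2 then had an adjusted p of 0.0248 in limma, the only one of the 10 genes under 0.05, where 1.03% of all tested genes were called higher in that fit. Over the 16 alternative settings tried, its adjusted p ran from 0.0248 to 0.596. The estimate was the same in both fits, and its SE fell from 0.49 to 0.37 with the block. Nqo1 and Mt1 came to adjusted p-values of 0.0506 and 0.0526 in the blocked limma fit, within ranges of 0.0506 to 0.421 and 0.0526 to 0.589 over the alternatives.

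Mt1 and Mt2 together made up 0.145%, 0.349% and 0.145% of all normalised counts in untreated replicates 1 to 3 and 0.336%, 0.543% and 0.798% in amisulpride replicates 1 to 3. On this measure too, untreated replicate 2 lay just above amisulpride replicate 1. The value of Mt2 relative to Mt1 was 1.1, 1.97 and 1.73 in untreated and 1.51, 2.07 and 2.80 in treated libraries, so the ranges of this ratio overlapped. An antisense gene overlapping Mt2 was at 0 in all libraries. Of the 31-base words at the Mt2 end, 47.4% also occur on the opposite strand of the gene model Gm45774. The deposited table lists no gene of that name, and whether it is the overlapping antisense gene was not tested. Whether reads were counted by strand is not given in the sources used here.

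**Figure D3:**
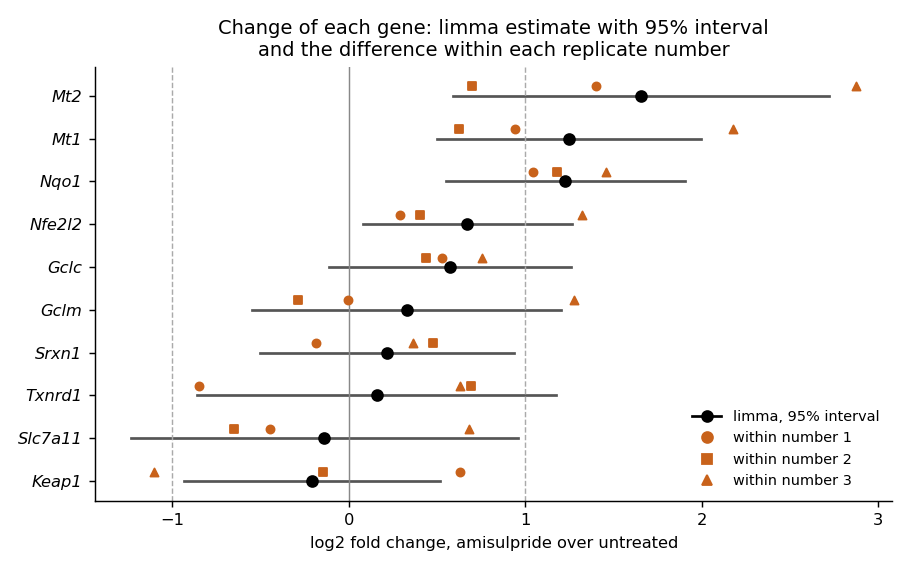
Log2 fold change of amisulpride over untreated for each gene, with the limma estimate and its 95% interval (black) and the difference within each replicate number (orange, marker by number), and dashed lines at −1 and 1. The 3 within-number differences of Mt2, Mt1, Nqo1, Nfe2l2 and Gclc are all above 0, and those of number 3 are the largest of the 3 for these genes and for Gclm and Slc7a11.

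Across the 10 genes, replicate number 3 carried the largest differences. The treated library was higher for 6, 7 and 9 of the 10 genes within numbers 1, 2 and 3, and the median log2 difference was 0.41, 0.46 and 1.02. The same counts and medians were not obtained for all tested genes, so they cannot be set against a share over all genes. Normalised counts of amisulpride replicate 3 summed to 4504242, where the other libraries had 3832980 to 3982723. The sum, depth and position of amisulpride replicate 3 go with this number, and their part in the difference was not tested. With that library left out, 3 genes stayed past the study thresholds, namely Nqo1, Mt1 and Mt2, and the median log2 fold change of the 10 was 0.41.

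**Figure D4:**
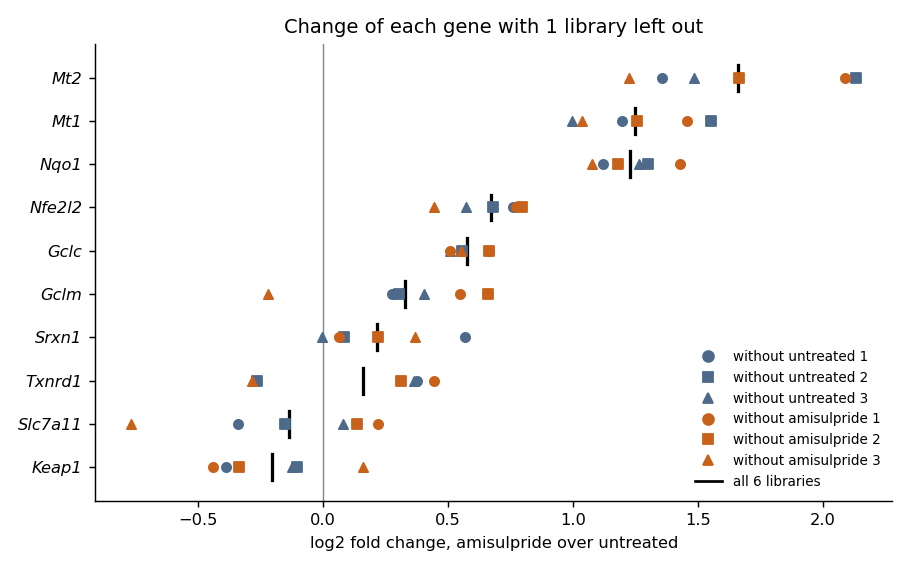
Log2 fold change of each gene with each of the 6 libraries left out in turn (blue markers for untreated, orange for amisulpride, shape by replicate number) and with all libraries (black bar). Mt2, Mt1, Nqo1, Nfe2l2 and Gclc stay above 0 in every case, whereas Gclm, Srxn1, Txnrd1, Slc7a11 and Keap1 cross 0 in at least 1.

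Likeness in pattern was measured as the root mean square difference between log2 values centred on the mean of each gene over the 6 libraries. The protein-coding genes closest to Mt1 among those tested were Dnm3, Ccdc64 and Tprn, at 0.068, 0.132 and 0.132, all 3 at low levels of at most 50 normalised counts in any library. Mt2 came at rank 209, at 0.415. Among the 10 genes the closest partner of Mt1 was Nqo1, at 0.313, that of Nfe2l2 was Gclc, at 0.225, and that of Gclm as listed was Slc7a11, at 0.32. Most of the listed Gclm value is Gm6061, and the remainder lacked the peak in amisulpride replicate 3 that Slc7a11 shows. These distances describe 6 libraries and carry no test.

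The wider pathway was examined through 5 lists holding 98 other genes, of which 90 were tested. An unadjusted p under 0.05 was found for 4 genes higher and 5 lower with amisulpride, against 5.11% and 5.77% of all tested genes. Past the study thresholds were 0 higher and 2 lower, and 0 had an adjusted p under 0.05 in limma, where 9 had an unadjusted p under 0.05. Of the lower genes, Slc39a8 passed the filter only through the untreated libraries, as given below. The 90 tested genes had a median log2 fold change of −0.05. Both counts over the 90 genes at an unadjusted p under 0.05 are near those shares, and the counts of single lists are given below. With the replicate number as a block, 7 were higher and 7 lower at an unadjusted p under 0.05. In that fit the shares over all tested genes were 7.14% and 7.43%, and again 0 had an adjusted p under 0.05 in limma. By list, 2 higher and 2 lower were among 22 glutathione and thioredoxin genes. Another 5 higher and 1 lower were among 26 other NRF2 target genes, and 0 and 4 among 21 zinc and copper handling genes.

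NRF2 regulators and partners comprised 11 tested genes, of which 0 had an unadjusted p under 0.05, with a median log2 fold change of 0.12. The lowest p-values belonged to Sqstm1, the autophagy receptor that sequesters KEAP1, and to Bach1, a repressor that competes with NRF2 at AREs. Sqstm1 had normalised counts of 1197, 947 and 1297 in untreated and 2225, 1595 and 1131 in amisulpride libraries (log2 fold change 0.48, unadjusted limma p 0.123). The groups overlapped through amisulpride replicate 3. Bach1 had 54, 49 and 46 in untreated and 29, 39 and 39 in treated libraries (−0.48, unadjusted limma p 0.15), all treated values being lower.

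Of 22 tested glutathione and thioredoxin genes, 1 was higher and 2 were lower at an unadjusted p under 0.05. All tested genes gave shares of 5.11% higher and 5.77% lower. The list had a median log2 fold change of −0.12. Slc3a2, the heavy chain that pairs with the Slc7a11 product in the cystine transporter and with other amino acid transporters, had values of 452, 497 and 797 in untreated and 1125, 737 and 1695 in amisulpride libraries. Its log2 fold change was 0.99 ± 0.34 (unadjusted limma p 0.0129, adjusted p 0.28), although untreated replicate 3 lay above amisulpride replicate 2. Txnrd2, the mitochondrial thioredoxin reductase, had 29, 25 and 27 in untreated and 9, 11 and 21 in treated libraries, a log2 fold change of −1.02 ± 0.44 (unadjusted limma p 0.0402). Its treated values were all lower. Prdx2, a peroxiredoxin, had 1212, 1332 and 1013 in untreated and 681, 958 and 762 in treated libraries (−0.57, unadjusted limma p 0.039). Prdx2 overlaps Junb on the opposite strand, and without knowledge of strand reads of overlapping genes cannot be told apart.

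Of 26 tested other NRF2 target genes, 3 were higher and 1 was lower at an unadjusted p under 0.05. Over all tested genes the shares were 5.11% higher and 5.77% lower. The median log2 fold change of the list was 0.16. Gstm1, a glutathione S-transferase, had values of 168, 202 and 143 in untreated and 314, 335 and 240 in amisulpride libraries, with no overlap between groups. Its log2 fold change was 0.79 ± 0.26 (unadjusted limma p 0.0103, adjusted p 0.258). Pgd, an enzyme of the pentose phosphate pathway that supplies NADPH, had 1449, 983 and 943 in untreated and 752, 754 and 580 in treated libraries (−0.68 ± 0.26, unadjusted limma p 0.0237). All its treated values were lower. Named after their values were seen, the other 2 higher genes were Ftl1, the ferritin light chain (log2 fold change 0.65, unadjusted limma p 0.0337), and Blvrb, a biliverdin reductase (0.89, unadjusted limma p 0.034). The same-strand gene model Gm22133 lies inside Ftl1 and was listed at 50.5% to 51% of the Ftl1 value in every library. Hmox1, the haem oxygenase often read as a marker of oxidative stress and also named afterwards, had 299, 246 and 148 in untreated and 396, 312 and 202 in treated libraries. Its groups overlapped (log2 fold change 0.40, unadjusted limma p 0.257), while within replicate numbers 1, 2 and 3 the treated value was 1.32, 1.27 and 1.36 times the untreated one. With the number as a block the unadjusted limma p was 0.132.

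Among 10 superoxide and peroxide enzymes and repair genes, 0 had an unadjusted p under 0.05, and the median log2 fold change was −0.18. The lowest p-values were those of Msrb1, a methionine sulfoxide reductase, at a log2 fold change of −0.53 (unadjusted limma p 0.0703), and Sod3, the extracellular superoxide dismutase, at 0.60 (unadjusted limma p 0.0841).

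The 21 tested zinc and copper handling genes included 0 higher and 2 lower at an unadjusted p under 0.05. Shares over all tested genes were 5.11% and 5.77%. The median log2 fold change of these 21 genes was −0.14. Slc39a8, an importer of zinc and other divalent metals, had values of 13, 33 and 15 in untreated and 2, 1 and 5 in amisulpride libraries. The treated values were all lower and lay at or under the floor of 3 reads. This floor corresponded to 2.5 to 5.37 normalised counts depending on the library. The fitted size of the change therefore depends on the pseudocount. Its log2 fold change was −2.57 ± 0.68 (unadjusted limma p 0.00289, adjusted p 0.163). Slc31a1, the copper importer, had 207, 212 and 189 in untreated and 152, 102 and 106 in treated libraries (−0.77 ± 0.26, unadjusted limma p 0.0121), again with no overlap. Cdc26 overlaps it on the opposite strand.

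Another 3 genes of the metal list were named after their values were seen, for their place beside Mt1 and Mt2. Mtf1, which encodes the factor that binds MREs, had 84, 70 and 58 in untreated and 46, 54 and 47 in amisulpride libraries (log2 fold change −0.51, unadjusted limma p 0.107). Slc30a1, a zinc exporter that is also a target of MTF1, had 150, 167 and 135 in untreated and 189, 128 and 138 in treated libraries. Its log2 fold change was −0.01 with an unadjusted limma p of 0.982, and the groups overlapped. Mt3, a metallothionein best known in brain, had 50, 13 and 20 in untreated and 2, 3 and 43 in treated libraries, with overlapping groups (log2 fold change −1.61, unadjusted limma p 0.106, or 0.0393 with the replicate block, which takes it past the study thresholds). Mt4 was at 0 in all 6.

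**Figure D5:**
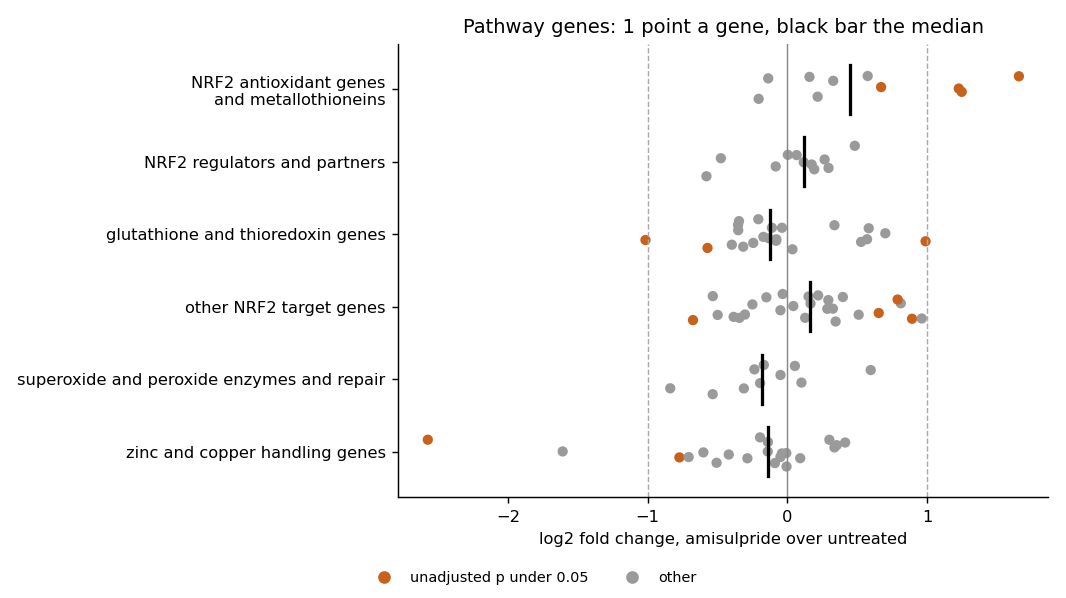
Log2 fold change of amisulpride over untreated for the 10 genes and for the tested genes of the 5 pathway lists, 1 point a gene (vertical scatter within a row has no meaning), with orange for an unadjusted limma p under 0.05, a black bar at the median and dashed lines at −1 and 1. The median of the 10 genes lies at 0.45 and those of the lists between −0.18 and 0.16.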

How the data were processed

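3′ mRNA sequencing data of 6 libraries were used, with groups taken from the treatment labels. The authors mapped reads to mm10 with TopHat2 and, for unmapped reads, Bowtie2, counted them per gene with GenomicRanges, removed genes without reads and normalised with DESeq through metaseqr. Versions were not given in the sources used here. The deposited values used are a score, namely counts scaled by a size factor for each library and then rounded. Another 12 columns of library values, and the authors' fold changes and p-values, were not used. No libraries held identical values.

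Values were tested with limma 3.58.1 in R 4.3.3 (two-sided, empirical Bayes with trend, prior degrees of freedom 7.31) on log2(value + 1), without covariates, for genes that reached 10 in 3 or more of the 6 libraries. This scale understates changes of low genes. An exact permutation test of 3 against 3 libraries cannot go below 0.1 and was not used. The methods call the replicates biological, and p-values measure the spread between these libraries. Deviations from group means correlated at 0.229, 0.24 and 0.201 between libraries of equal replicate number and at −0.149 to −0.078 otherwise, so a fit with the number as a block was added. Reads carried no molecular identifiers, so floors cover counting error only.

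The 10 genes and the pathway lists were chosen with earlier results of these data known. Besides the 10 genes, the genes named are those of each list past the study thresholds, filled up to 2 a list by the lowest unadjusted p, and the 3 protein-coding genes closest to Mt1. Alternatives varied the pseudocount, filter, scaling, library weights, variance trend, block and libraries. Coordinates are those deposited. Exon counts are from GENCODE M21, and promoters are from RefSeq (GRCm38.p6). An overlap of 1 list gene with another gene is not reported here.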

Additional observations from a re-analysis of the deposited data

How the results depend on the processing

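Of 158 alternative values for the 10 genes, 147 kept direction and side of the threshold, 1 fell short of it (Mt1, 0.997 without untreated replicate 3) and 10 changed sign, all in genes with overlapping groups. Log2 fold changes after a change of sign were 0.16 for Keap1, −0.22 for Gclm and −0.28 for Txnrd1 without amisulpride replicate 3, −0.0354 for Gclm and −0.0386 for Txnrd1 with array weights, −0.26 for Txnrd1 without untreated replicate 2, −0.00599 for Srxn1 without untreated replicate 3, and 0.08, 0.22 and 0.14 for Slc7a11 without untreated replicate 3, amisulpride replicate 1 and amisulpride replicate 2. With 1 library left out these 5 genes ranged from −0.44 to 0.16 (Keap1), −0.22 to 0.66 (Gclm), −0.28 to 0.44 (Txnrd1), −0.00599 to 0.57 (Srxn1) and −0.77 to 0.22 (Slc7a11). The number of the 10 genes past the study thresholds was 3 in every setting but 2 without untreated replicate 3. With the replicate block, 1 gene had an adjusted p under 0.05 instead of 0, and the block changed no other call of the 10. Of the 98 genes of the lists, the 2 past the thresholds became 1 with pseudocount 5, 1 with no filter, 0 with the stricter filter, which leaves both genes untested, 5 with array weights and 1 to 6 with 1 library left out. With pseudocount 5 the log2 fold change of Txnrd2 was −0.83, and with no filter its unadjusted limma p was 0.0549. Slc39a8 did not reach the filter in any fit that left out an untreated library. The cause of the other changes was not tested. Over all genes, adjusted p under 0.05 was reached by 36 genes, by 0 without untreated replicate 2 or 3, by 120 without amisulpride replicate 3, by 195 with array weights and by 263 with the block. Slc7a11, Txnrd1, Gclc and Nqo1 rested on as few as 20.2, 23.7, 26.8 and 37.9 reads in a library, which limits what could be seen for them.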
